A study of Homo sapiens with 64 samples.

Results

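Gene expression after 18 h of indacaterol was compared with that after 18 h of vehicle in the BEAS-2B line, which was derived from human bronchial epithelium and immortalised. The 8 arrays were those titled for these groups, 4 replicates with 10 nM indacaterol and 4 with vehicle, of 64 arrays in the series. The remaining arrays hold both treatments at 1, 2 and 6 h, and 10 nM GSK 256066 with or without 10 nM indacaterol at all 4 times, again with 4 replicates per group. All cells had been grown in keratinocyte serum-free medium, with growth factor and pituitary extract at first and without them for the last day, and RNA was hybridised to Affymetrix arrays that carry 19775 named genes. The questions were how far the response seen at 1, 2 and 6 h had returned to the vehicle level at 18 h, and what remained of it. Each difference is indacaterol minus vehicle on the log2(signal + 16) scale, which understates changes of dim genes, and stands with its standard error at n = 4 per group. A gene was called at an adjusted p under 0.05 in a limma model of all 64 arrays.

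Indacaterol is a long-acting agonist of the beta2-adrenoceptor, a receptor that airway epithelial and smooth muscle cells carry. The receptor acts through the G protein Gs and adenylyl cyclase to raise cyclic AMP (cAMP), which activates protein kinase A and, through it, the transcription factor CREB at cAMP response elements. The first genes to respond include transcription factors whose RNA is short lived, together with genes that end the signal, among them cAMP phosphodiesterases, the kinase SIK1, the repressor products of CREM and the regulator of G-protein signalling RGS2. GSK 256066 is an inhibitor of the type 4 cAMP phosphodiesterases (PDE4).

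The labels say nothing on whether replicates were separate cultures. A p-value therefore sets a difference between groups only against the spread of arrays within the 16 groups of the model. Having 4 arrays in each group limits the precision. In such bulk RNA, fewer cells of a type and less RNA per cell cannot be told apart. Median signals of the 8 arrays ran from 109.4 to 125.0. The keratins KRT8 and KRT18 had mean vehicle signals of 3835 ± 933 and 5927 ± 554 at 18 h (SD, n = 4), and 9 of 14 epithelial and line-specific genes lay above 1000. None of 14 leukocyte, 9 ciliated or 10 secretory markers did, while 3 of 12 fibroblast markers did, with summed levels of 11847 to 15734 with vehicle and 8658 to 15447 with indacaterol. Replicate 3 stood apart: its arrays reached signals of at least 265800, against at most 18400 on all others. Values without it are given for the genes called at 18 h and for the counts that it moved. They are also given for genes named for their 18 h difference that it moved by over 1.5 times. Genes named only as members of a gene list, or only as called at 6 h with a difference left at 18 h, have no such value. Arrays of one replicate number deviated together at 18 h (r of 0.47 to 0.72 for the 4 numbers), so values with the replicate number as a block in the model stand beside those without it.

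At 18 h the response had largely ended. Limma called 42 genes at 1 h, 231 at 2 h, 54 at 6 h and 1 at 18 h, which are 0.212%, 1.17%, 0.273% and 0.00506% of the genes tested. With the replicate block the counts were 205 at 1 h, 453 at 6 h and 7 at 18 h. Fold changes were counted on the scale of the differences, so a larger change in the signal of a dim gene can go uncounted. Genes at least 2-fold above vehicle on that scale numbered 34, 94, 36 and 0 at 1, 2, 6 and 18 h. Those at least 2-fold below on it numbered 0, 6, 2 and 1. The 1 gene was SNCG, the gamma-synuclein gene, whose mean signal was 68.5 with vehicle and 30.2 with indacaterol (-1.08 ± 0.49, limma adjusted p = 1, and 0.0873 with the block). It was singled out by its size and had 0.21 on the separate arrays described further on. The standard deviation of the difference over all genes was 0.18, 0.21, 0.17 and 0.15 at the 4 times.

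The data also bound what could have been missed. At 18 h the 95% interval of a gene's difference reached a median of 0.28 to either side (0.22 with the block). It lay wholly within 1 log2 unit of no difference on the same scale for 96.7% of genes (99.6% with the block). Because that scale understates changes of dim genes, a larger change in their signal could lie within this bound. An unadjusted p under 0.05 was found for 870 genes, 4.40% of those tested, where 989 would be expected if no gene changed. With the block 1498 genes, 7.58%, had one.

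Over the 3 earlier times 270 genes were called, 219 higher and 51 lower, and these are called early genes here. For each, the largest called difference was taken as its peak, and the 18 h difference was expressed as a percentage of it. The median over early genes was 4.43% of the peak, with quartiles of -6.59 and 14.2%. Computed within each replicate number, the medians were 12.5, 1.87, -1.78 and 5.37% (SD 6.07, n = 4). This SD is the spread of single replicates and not the error of the overall median. Without the indacaterol array of replicate 1 the overall median was -0.26%. Of the 270, 0 were called at 18 h with or without the block. Their 95% intervals included 0 for 259 genes, lay beyond 0 in the early direction for 8 and in the opposite direction for 3. The share with an interval clear of 0 was thus 4.07%, beside 4.40% of all genes. With the block 24 lay beyond 0 in the early direction and 6 in the opposite one, 11.1% of early genes beside 7.58% of all genes. Both shares of early genes depend on the early calls, since a gene's spread is estimated over all times together. For 174 early genes the whole interval lay below 50% of the peak, and for 206 with the block.

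Taking the largest of 3 differences can overstate a peak. The same summary was therefore made for 230 genes (1.16%) called on arrays that enter none of these differences, those of both drugs against GSK 256066 at 1, 2 or 6 h. Of these, 182 were early genes. Their median indacaterol difference at the time of that call was 0.69 in the called direction, and it was 0.0087 at 18 h, with a median of 1.26% left.

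The fall of the response between an earlier time and 18 h was tested directly as the difference of 2 differences, which share no array. Against 1 h it was called for 9 genes (0.0455%), all of them among the 42 called at 1 h and all toward the vehicle level: EDN1, IL6, KLF6, NR4A3, PRDM1, RGS2, SGK1, TGIF1 and TRIB1. With the block 57 genes were called. Against 2 h it was called for 59 genes (0.298%), of which 58 were among the 231 called at 2 h, each toward the vehicle level. Each contrast contains the earlier difference by which such genes were called, so this overlap and direction were largely set by that choice. Against 6 h it was called for 3 (0.0152%), CSGALNACT1, KLHL29 and SLC7A2, and for 72 with the block. These counts moved with single replicates. Leaving out replicate 1, 2 or 4 throughout gave 2, 3 and 3 genes against 1 h, and leaving out vehicle replicate 2 or indacaterol replicate 3 at 18 h gave 4 each. Without replicate 1 or 2 there were 25 and 11 against 2 h, and without indacaterol replicate 3 or 4 at 18 h 37 and 39. Against 6 h there were 1, 13 and 0 without replicate 2, 3 or 4, and 5 without indacaterol replicate 1 at 18 h.

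Some early genes carry a cAMP response element near their start, the DNA sequence through which CREB acts. RefSeq promoters (GRCh38.p14) matched 15384 of the measured genes, with 1 start used per gene. The 250 bases before that start were searched on both strands for the full element TGACGTCA and for its shorter form TGACG. The shorter form lies within the full one and reads on the other strand as CGTCA. The full element was found in 9 of 178 early genes that rose (5.06%) and in 2.38% of all measured promoters, and the shorter form in 36.0% and 25.9%. Among risers with a peak at 1 or 2 h the shorter form was in 39.3%, and among those with a peak at 6 h in 17.9%. A match describes letters and not a site in use. The windows of 60 bases printed here belong to genes whose values are described in the next paragraphs, and capitals mark each match to either form. Described genes without a match in the bases searched included SGK1, NR4A1, PRDM1, PDE4D, CRISPLD2, STEAP4, SLC16A14, WNT4 and BNC1. Any other start of a gene, and bases further from the start, were not searched, so these genes may carry the element elsewhere. Of the 7 genes called at 18 h with or without the block, only SMOC1 had the shorter form (14.3%, beside 25.9% of all promoters). None of the 7 had the full element. The printed windows lie at chr9:99821825-99821884 (plus strand) for NR4A3, chr6:165988100-165988159 (minus) for LINC00473, chr7:22727010-22727069 (plus) for IL6, chr21:43427226-43427285 (minus) for SIK1, chr1:192808830-192808889 (plus) for RGS2, chr5:172771287-172771346 (minus) for DUSP1, chr6:135851520-135851579 (plus) for PDE7B and chr14:69879314-69879373 (plus) for SMOC1.
NR4A3: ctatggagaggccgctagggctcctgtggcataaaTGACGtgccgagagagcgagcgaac
LINC00473: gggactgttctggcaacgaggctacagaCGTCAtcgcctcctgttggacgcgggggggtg
IL6: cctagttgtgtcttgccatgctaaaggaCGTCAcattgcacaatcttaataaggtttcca
SIK1: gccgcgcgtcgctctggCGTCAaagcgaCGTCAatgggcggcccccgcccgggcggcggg
RGS2: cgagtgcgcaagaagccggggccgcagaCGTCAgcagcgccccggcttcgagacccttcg
DUSP1: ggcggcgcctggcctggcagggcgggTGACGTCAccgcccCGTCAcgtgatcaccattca
PDE7B: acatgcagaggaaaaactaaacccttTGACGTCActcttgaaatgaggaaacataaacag
SMOC1: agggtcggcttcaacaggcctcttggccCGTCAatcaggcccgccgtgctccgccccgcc

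Orphan nuclear receptors of the NR4A family are immediate early transcription factors. NR4A3 had the largest difference of any gene at 2 h, with a mean signal of 27.1 ± 12.5 with vehicle and 2171 ± 1050 with indacaterol (SD, n = 4). At 18 h its signals were 25.5, 19.6, 10.8 and 1.77 with vehicle and 50.7, 0.757, 0.0507 and 9.27 with indacaterol, for replicates 1 to 4. The groups overlapped and all 8 values were dim. Its difference went from 5.58 ± 0.58 at 2 h (limma adjusted p = 3.11e-09) to -0.16 ± 0.58 at 18 h, and its change of -5.73 was called (adjusted p = 5.01e-05). NR4A2 had 4.27 at 2 h and 0.20 at 18 h, and NR4A1 had 2.14 and -0.05.

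IL6, a cytokine, had a mean signal of 161 ± 49.7 with vehicle and 1876 ± 970 with indacaterol at 1 h. After 18 h its 4 vehicle signals were 125, 103, 53.5 and 55.1, and its 4 indacaterol signals 149, 112, 44.4 and 56.4. Replicates 1 and 2 were high in both groups and replicates 3 and 4 low in both. The difference was 3.32 ± 0.47 at 1 h and 0.04 ± 0.47 at 18 h, and its fall was called (adjusted p = 0.0306). CXCL2, a neutrophil-attracting chemokine, had 2.19 at 1 h and 0.24 at 18 h, or 0.41 without replicate 3.

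SGK1 is a kinase induced by serum and glucocorticoids. Its mean signal at 2 h was 887 ± 299 with vehicle and 4983 ± 1120 with indacaterol. By 18 h the vehicle signals were 1177, 1539, 827 and 1278 and the indacaterol signals 1206, 1422, 907 and 1327. Within each replicate number the values were close, and the groups overlapped throughout. Its difference was 2.51 ± 0.22 at 2 h and 0.03 ± 0.22 at 18 h, with a 95% interval of -0.42 to 0.48, and the fall between them was called (adjusted p = 2.84e-06).

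Of the 203 early genes with a peak at 2 h, 116 lay in their early direction at 18 h. Others, such as MAP3K8 (-0.30) and CCN2 (-0.24), which had risen, lay on the opposite side. Some early genes of short duration had small positive differences in most pairs. LINC00473, a non-coding RNA induced by cAMP, had 123, 130, 67.7 and 90.0 with vehicle at 18 h and 152, 144, 104 and 131 with indacaterol. Each replicate was higher with indacaterol than its partner, but the groups overlapped. Its difference was 3.47 ± 0.33 at 2 h and 0.35 ± 0.33 after 18 h (adjusted p = 1, and 0.705 with the block). RGS2 gave 2059, 1877, 1081 and 1750 with vehicle and 2709, 2180, 1286 and 2068 with indacaterol. It too was higher in all 4 pairs with overlap between groups, at 2.21 ± 0.28 at 2 h and 0.27 ± 0.28 after 18 h (adjusted p = 1, and 0.764 with the block). PDE4D, which encodes a cAMP phosphodiesterase, had 2.34 ± 0.44 at 2 h and 0.35 ± 0.44 at 18 h and was also higher in 4 of 4 pairs. PRDM1, a transcriptional repressor, went from 2.56 at 1 h to 0.22, and SIK1 from 2.56 at 2 h to 0.18, each higher in 3 of 4 pairs. DUSP1, a phosphatase that inactivates MAP kinases, went from 0.72 at 1 h to 0.03. None of these 18 h differences was called.

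Genes that had fallen came back as well. EGR1, a zinc-finger transcription factor, was at 1607 ± 239 with vehicle and 630 ± 234 with indacaterol at 2 h. At 18 h its signals were 2220, 1720, 2365 and 1509 with vehicle and 1984, 1592, 1697 and 1562 with indacaterol. The groups overlapped, and the difference had gone from -1.40 ± 0.19 to -0.17 ± 0.19, a rise of 1.22 that was called (adjusted p = 0.0167). Without replicate 3 the 18 h difference was -0.07. TXNIP, which binds thioredoxin, went from -1.20 at 2 h to 0.06, and its return was called (adjusted p = 0.0343). The returns of the cell-cycle genes CCNF (-0.85 to 0.15) and BORA (-0.81 to 0.05) were called too. BNC1, a transcription factor of basal epithelial cells, had risen by 0.72 at 2 h and lay at -0.26 ± 0.12 at 18 h with no overlap between the groups. Indacaterol replicate 3 was its lowest value, and without replicate 3 the difference was -0.14, as it was for its second probe set with all 4. Only 1 more early gene, CHST15, lay beyond the vehicle values on the opposite side.

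**Figure D1:**
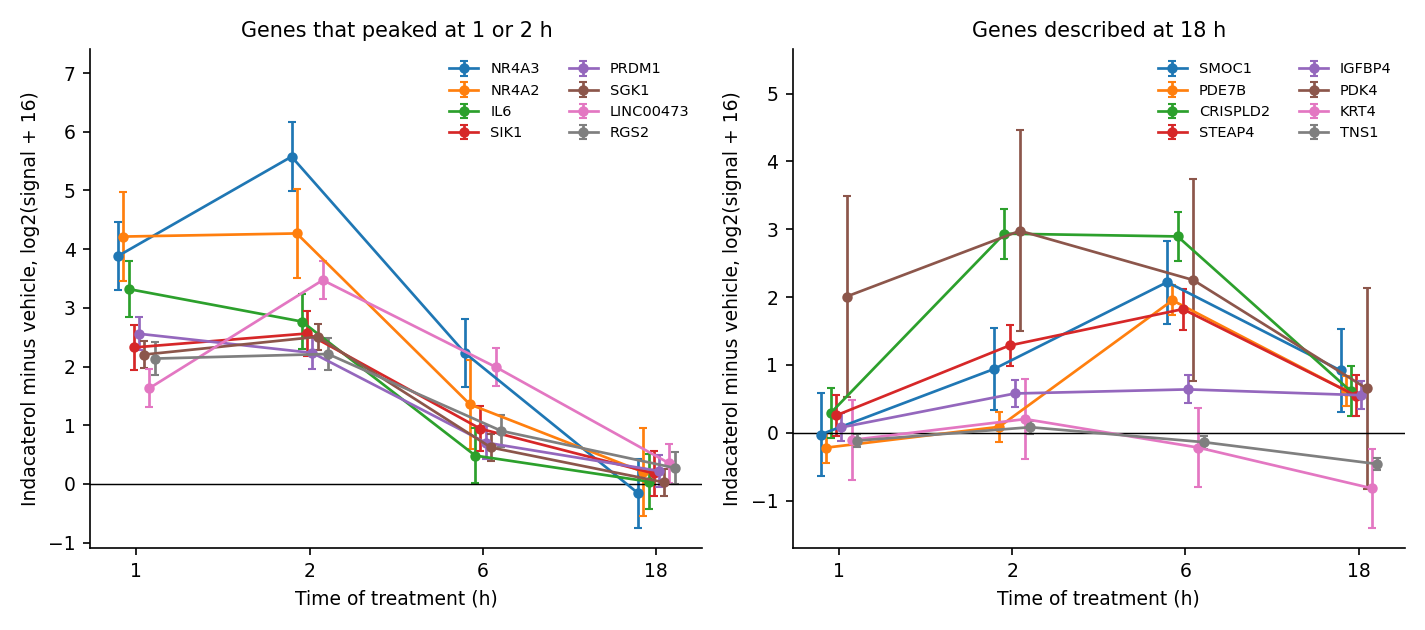
Indacaterol minus vehicle on the log2(signal + 16) scale at 1, 2, 6 and 18 h for 16 genes, with bars of 1 standard error from the model without the replicate block (n = 4 per group). Genes at the left reach up to 5.58 and lie between -0.16 and 0.35 at 18 h, while those at the right lie between -0.82 and 0.92, and PDK4, whose replicates differ in level, has the widest bars.

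The share left is given by the time of the peak. The 25 early genes with a peak at 1 h had a median of 4.68% left, the 203 with a peak at 2 h 2.01%, and the 42 with a peak at 6 h 19.9% (quartiles 6.88 and 30.1%). Of these 42, 34 still lay in their early direction at 18 h, compared with 116 of 203 and 17 of 25. Peak sizes were alike, with median sizes of 0.77, 0.67 and 0.74. On the genes chosen from the separate arrays, the medians were 15.2% for 56 genes with a peak at 6 h and -0.68% for 174 with a peak at 1 or 2 h. The genes were chosen on their early values, which makes these medians descriptions, and no test was made between the classes. A gene that peaked between 6 and 18 h cannot be told from one still falling at 18 h.

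**Figure D2:**
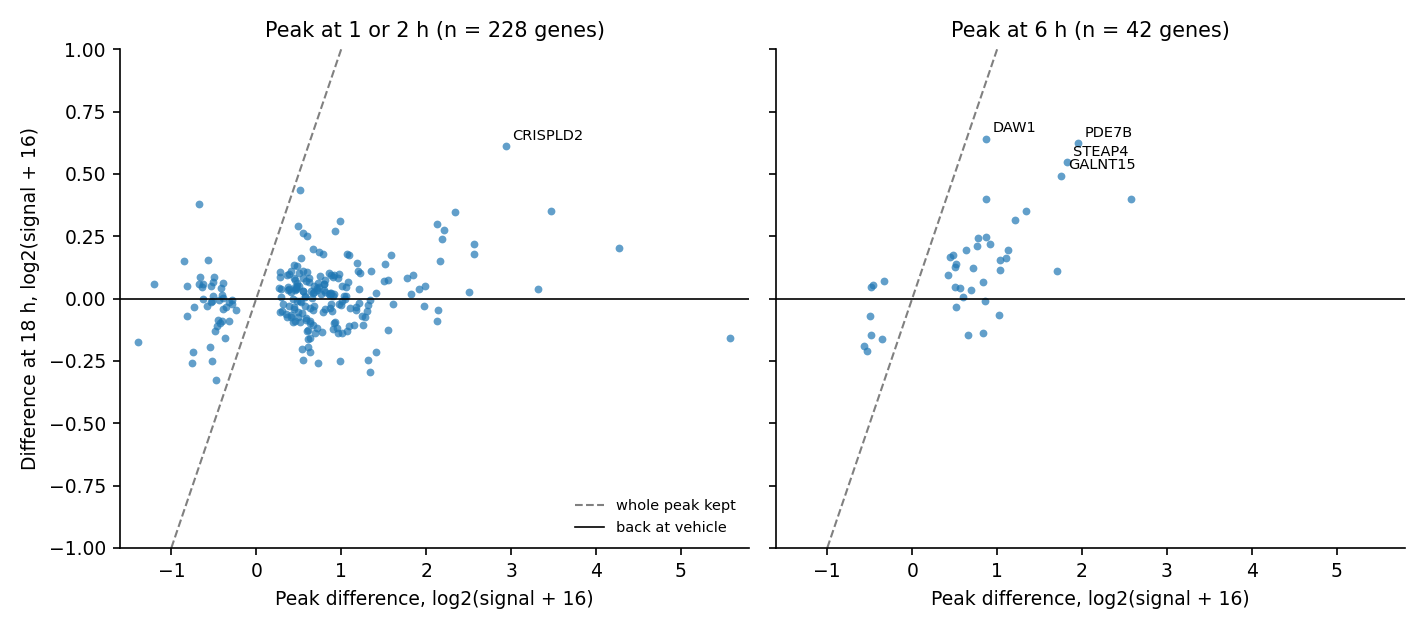
Peak difference against 18 h difference, both on the log2(signal + 16) scale, for the 228 early genes with a peak at 1 or 2 h and the 42 with a peak at 6 h, 1 point per gene. The dashed line marks a peak kept whole and the solid line the vehicle level, and only DAW1 among the 42 comes near the dashed line, with 73.8% left at a dim signal.

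Among 74 early genes with a peak of at least 1 log2 unit, the share left had a median of 3.81% and ran from -22.0% to 31.9%. It exceeded 20% for 6: PDE7B, STEAP4, GALNT15, WNT4, SLC16A14 and CRISPLD2. The first 5 were among the 12 of these 74 genes that peaked at 6 h. For 59 of the 74 the whole 95% interval lay below 50% of the peak, and for 70 with the block. The 74 leave out genes called with the block only. Picked by their 18 h values, COBL (1.45 at 6 h and 0.73 at 18 h), GASK1B (-1.03 and -0.71) and SMOC1 (2.22 and 0.92) were among those. Over all 453 genes called at 6 h with the block the median left was 17.1%.

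PDE7B encodes a phosphodiesterase that breaks down cAMP. Its mean signal was 131 ± 30.4 with vehicle and 141 ± 33.1 with indacaterol at 2 h, and 103 ± 19.8 and 438 ± 29.0 at 6 h. At 18 h the vehicle signals were 107, 106, 96.0 and 103 and the indacaterol signals 166, 152, 195 and 157. Every indacaterol value lay above every vehicle value, as they did for 2.18% of all genes. The difference was 1.95 ± 0.22 at 6 h and 0.62 ± 0.22 after 18 h, with a 95% interval of 0.18 to 1.07 (adjusted p = 0.854, and 0.362 with the block). It fell by 1.33 between these times, which was called with the block only (adjusted p = 0.0155, and 0.170 without it). Dimmer probe sets of the gene gave 0.15 and 0.12 at 18 h.

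CRISPLD2, a secreted protein known as a glucocorticoid-induced gene of airway cells, differed by 2.94 at 2 h and 2.89 at 6 h. Its 18 h signals were 562, 175, 184 and 182 with vehicle and 765, 342, 254 and 298 with indacaterol. All 4 pairs were higher with indacaterol, and the groups overlapped because vehicle replicate 1 was high. The difference was 0.61 ± 0.37 (adjusted p = 1, and 0.155 with the block). STEAP4, a metalloreductase, had 395, 399, 221 and 325 with vehicle and 667, 600, 315 and 432 with indacaterol, again higher in 4 of 4 pairs (0.55 ± 0.30, adjusted p = 1, and 0.295 with the block). Its second probe set, with 0.89 at 2 h and 1.33 at 6 h, gave -0.02 at 18 h. GALNT15, which starts O-linked glycosylation, had 0.49 ± 0.26, and SLC16A14, a transporter of the monocarboxylate family, 0.31 ± 0.20. CSGALNACT1, an enzyme of chondroitin sulfate synthesis, fell from 2.58 at 6 h to 0.40 at 18 h (adjusted p = 0.00267; 0.60 at 18 h without replicate 3), and SLC7A2, a transporter of cationic amino acids, from 1.70 to 0.11 (adjusted p = 0.00349).

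A total of 10 early genes had 4 indacaterol values beyond the 4 vehicle values in their early direction and 2 in the opposite one, where 2.85% of all genes had no overlap in either direction. Those not yet named were PRDM4-AS1, VMP1, FARP1, CYP2E1, PKHD1L1, MAOA, LOC439933 and KCNK15, with differences of -0.33 to 0.44. On the separate arrays they gave -0.02, 0.07, 0.21, 0.02, -0.12, 0.17, -0.14 and 0.41 in that order. Dimmer probe sets gave 0.20 for PRDM4-AS1, -0.08 to 0.09 for FARP1 and -0.14 to 0.19 for CYP2E1. They gave -0.02 and -0.04 for MAOA, -0.0065 for LOC439933 and -0.08 for KCNK15. Without replicate 1, 2, 3 or 4 throughout, the count of 10 became 13, 8, 41 and 25, of 123, 153, 325 and 201 early genes. Leaving out vehicle replicate 1 at 18 h gave 20 and indacaterol replicate 3 gave 30, while the 6 other single arrays gave 11 to 15.

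Without the block FSD2 was the 1 gene called at 18 h, and with it 7 were (0.0354%): SMOC1, IGFBP4, FSD2 and CABP4 were higher with indacaterol, and KRT4, TNS1 and NPNT lower. None was among the 270 early genes, which were called without the block, but with the block SMOC1 and IGFBP4 were called at 6 h as well. With the block, leaving out replicate 1, 2, 3 or 4 throughout gave 0, 1, 2 and 10 calls, and without it single arrays left out at 18 h gave 0 to 4, the latter without vehicle replicate 4. With the block, each of the 7 kept its direction without replicate 1, 2, 3 or 4. Without the block, NPNT turned to 0.13 when vehicle replicate 3 was left out at 18 h. The separate arrays, those of both drugs and of GSK 256066 alone at 18 h, give a second measure of indacaterol on 8 other arrays that carry the same 4 replicate numbers. On these, limma with the block called 19 genes (0.0961%), and SMOC1, IGFBP4, KRT4 and TNS1 were among them. Without the block it called 0 there, with 401 genes at an unadjusted p under 0.05. Leaving out replicate 1, 2, 3 or 4 with the block, the adjusted p on the separate arrays was 0.0186, 0.00624, 0.0276 and 0.00229 for SMOC1, and 0.0728, 0.000651, 0.0276 and 0.0212 for IGFBP4. For KRT4 it was 0.485, 0.0885, 0.00133 and 0.143, and for TNS1 0.592, 0.114, 0.867 and 0.107, so TNS1 lost its call there in each.

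SMOC1 is a secreted calcium-binding protein of the extracellular matrix. Its signals at 18 h were 640, 195, 427 and 176 with vehicle and 1069, 402, 802 and 388 with indacaterol. The replicates differed in level, so the groups overlapped, but each indacaterol value was higher than its partner by a like factor. The difference was 0.92 (SE 0.61 without the block, 0.16 with it, adjusted p = 1 and 0.00744). Without replicate 1, 2, 3 or 4 the blocked adjusted p was 0.168, 0.171, 0.00147 and 0.0694. It had been -0.03 at 1 h, 0.94 at 2 h and 2.22 at 6 h, and its change of -1.30 from 6 h was called with the block (adjusted p = 0.000564). On the separate arrays it was 1.10 ± 0.16 (adjusted p = 0.000224 with the block), and a second probe set gave 1.02 and 1.28.

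IGFBP4 binds insulin-like growth factors in the medium around cells. It had 2798, 2836, 2855 and 2138 with vehicle and 4083, 3864, 3972 and 3613 with indacaterol. All indacaterol values lay above all vehicle values. The difference was 0.08, 0.58, 0.64 and 0.55 at the 4 times (SE at 18 h 0.21 without the block, adjusted p = 0.872, and 0.10 with it, adjusted p = 0.00744). Its difference at 18 h minus that at 6 h was -0.09, with a standard error of 0.14 with the block (adjusted p = 1, and 0.956 with the block). The separate arrays gave 0.67 (adjusted p = 0.000227 with the block). Without replicate 1, 3 or 4 the blocked adjusted p at 18 h was 0.242, 0.0999 and 0.133.

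KRT4, a keratin of stratified mucosal epithelia, had 321, 331, 181 and 312 with vehicle and 189, 181, 76.7 and 192 with indacaterol. It was lower in 4 of 4 pairs, replicate 3 was lowest in both groups, and the vehicle value of replicate 3 lay below 3 of the indacaterol values. The difference was -0.82 (SE 0.15 with the block, adjusted p = 0.00744, and 1 without it), after -0.11, 0.20 and -0.22 at 1, 2 and 6 h. The separate arrays gave -0.77 (adjusted p = 0.0233 with the block). Without replicate 1, 2 or 4 the blocked adjusted p was 0.242, 0.171 and 0.0648, and without replicate 3 it was 4.73e-05. A dim second probe set gave -0.0033.

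TNS1, tensin 1, links integrins to actin at focal adhesions. Its signals were 729, 673, 764 and 611 with vehicle and 529, 486, 503 and 476 with indacaterol, so no indacaterol value reached the lowest vehicle value. The difference was -0.46 ± 0.10 (adjusted p = 0.119, and 0.0236 with the block), after -0.12, 0.08 and -0.14, and it was -0.42 on the separate arrays (adjusted p = 0.0365 with the block). The blocked adjusted p was 0.242, 0.171 and 0.406 without replicate 1, 2 or 3. Its 4 other probe sets gave -0.06 to -0.37. NPNT, nephronectin, an integrin ligand of basement membranes, had 294, 77.3, 1099 and 55.9 with vehicle and 201, 39.8, 566 and 37.4 with indacaterol. It was lower in each pair across a wide range of levels (-0.65, adjusted p = 0.0477 with the block and 1 without it), and -0.47 on the separate arrays (adjusted p = 0.302 with the block). No leave-one-out fit with the block called it, at adjusted p of 0.242, 0.267, 0.468 and 0.0987.

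FSD2 and CABP4 gave another picture. FSD2, which encodes a protein with fibronectin and SPRY domains, was dim, at 29.1, 33.8, 31.9 and 46.0 with vehicle and 48.9, 61.8, 65.1 and 68.5 with indacaterol. All indacaterol values were higher (0.59 ± 0.11, limma adjusted p = 0.0437, and 0.00744 with the block). Quantile normalization ended the call at 0.53 (adjusted p = 0.201), and without replicate 1, 2, 3 or 4 the adjusted p was 0.382, 0.773, 0.316 and 0.0828 (0.168, 0.171, 0.125 and 0.0357 with the block). CABP4, a calcium-binding protein known from photoreceptors, had 355, 274, 352 and 400 with vehicle and 545, 501, 546 and 489 with indacaterol, again without overlap (0.58 ± 0.12, adjusted p = 0.128, and 0.0483 with the block). Its blocked adjusted p was 0.314, 0.171, 0.468 and 0.0357 without replicate 1, 2, 3 or 4. On the separate arrays the values were 0.04 and -0.18 (adjusted p = 1 for each with the block). GSK 256066 alone, set against the same 4 vehicle arrays, gave 0.53 for FSD2 and 0.36 for CABP4, so these comparisons share their controls. For CABP4 the next brightest probe set gave 0.42 and a dim one 0.05.

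**Figure D3:**
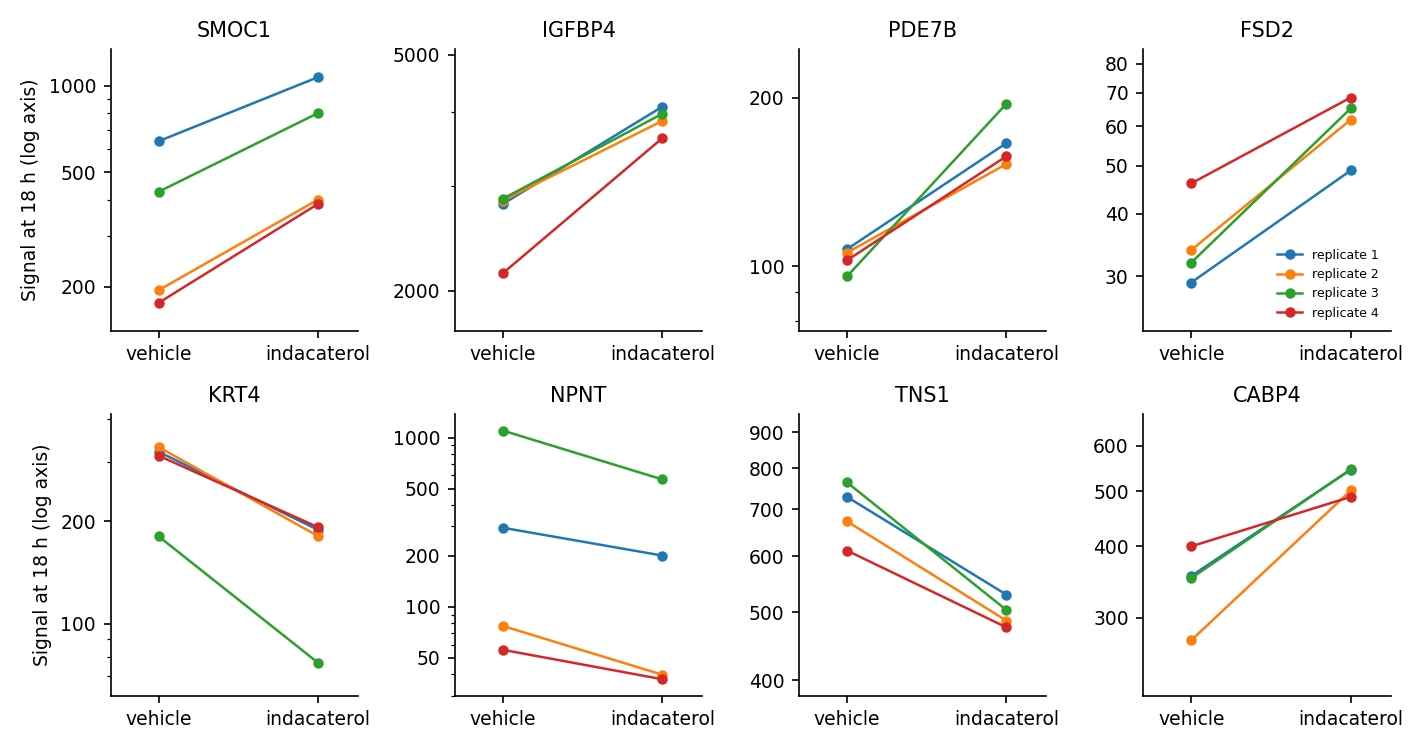
Signal at 18 h (log axis, each panel with its own range) for the 7 genes called with the replicate block and for PDE7B, with a line joining the vehicle and indacaterol arrays of 1 replicate number. In SMOC1 and NPNT the replicates differ more in level than the treatments do, while for IGFBP4, TNS1, FSD2, CABP4 and PDE7B the groups do not overlap.

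A wider residue was described from genes called at 6 h with the block, 453 in all (2.29%), 325 higher and 128 lower. At 18 h 322 of them lay in the same direction, with a median of 17.1% of the 6 h difference left. Of the 325 higher genes 57, or 17.5%, had an unadjusted blocked p under 0.05 in the same direction, where 4.99% of all genes did. Of the 128 lower genes 27, or 21.1%, did, against 2.58%. The 6 h call and the 18 h p-value rest on 1 estimate of spread per gene. A gene with a low estimate passes both more readily, so these shares are not independent of the 6 h call. These 84 genes were chosen on their 18 h values, so their sizes there are a description only. Leaving out replicate 1 or 2 in both steps gave 34 and 47 genes in place of 84.

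The differences on the separate arrays were not used to choose these genes, but those arrays share the replicate numbers and enter the model's estimates of spread and block, so their p-values are not independent of the choice. On them 79 of the 84 genes had the same sign, 56 of the 57 higher and 23 of the 27 lower. An unadjusted blocked p under 0.05 in that direction was found for 45 of the 57, where 3.97% of all genes had one, and for 10 of the 27, against 1.51%. Median differences of the higher genes were 0.68 at 6 h, 0.30 at 18 h and 0.33 at 18 h on the separate arrays. For the lower genes they were -0.47, -0.28 and -0.17. These arrays differ from the 18 h pair in that GSK 256066 was present in both groups.

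**Figure D4:**
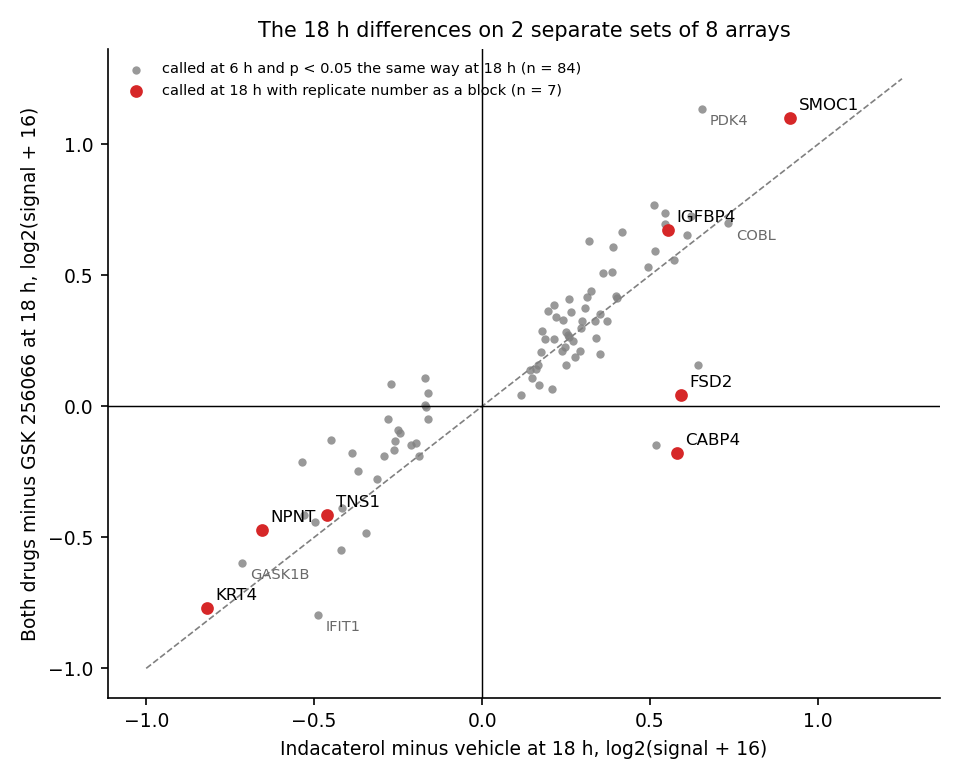
Indacaterol minus vehicle at 18 h against both drugs minus GSK 256066 at 18 h, each from 8 arrays, on the log2(signal + 16) scale. Grey points are the 84 genes called at 6 h with the block that had an unadjusted p under 0.05 the same way at 18 h, red points the 7 genes called at 18 h, and the dashed line marks equal values, from which FSD2 (0.04) and CABP4 (-0.18) lie furthest among the 7.

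The residue held genes of several kinds, named here after their values were seen unless they belong to one of the gene lists. Secreted and matrix genes with higher values included SMOC1, IGFBP4, CRISPLD2, the antimicrobial peptide gene DEFB1 (0.57, and 0.56 on the separate arrays), the lipase LPL (0.39 and 0.61), the stress-induced cytokine GDF15 (0.35 and 0.35) and the protease HTRA1 (0.25 and 0.27). Metabolic and membrane genes were PDK4, an inhibitor of pyruvate dehydrogenase (0.65 and 1.14), STEAP4 and STEAP1 (0.40 and 0.42). COBL, an actin nucleator, gave 0.73 and 0.70, and the keratin KRT7 0.42 and 0.67. PDK4 had 377, 46.6, 988 and 42.4 with vehicle and 612, 94.1, 1217 and 87.5 with indacaterol at 18 h, higher in each pair by unequal factors with the levels far apart. Its difference was 2.98 at 2 h, and at 18 h it was 0.65 ± 0.22 with the block (adjusted p = 0.386).

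Among the lower genes were the Golgi-associated kinase GASK1B (-0.71, and -0.60 on the separate arrays), PDE1C, a calmodulin-dependent phosphodiesterase (-0.53 and -0.41), and CCN3, a matricellular protein (-0.50 and -0.44). The actin-binding smooth muscle gene TAGLN gave -0.42 and -0.39, the chemerin gene RARRES2 -0.42 and -0.55, and the interferon-induced gene IFIT1 -0.49 and -0.80. The adrenoceptor gene ADRB1 gave -0.37 and -0.25. Other lower genes repeated less on the separate arrays, such as LINC01085 (-0.54 and -0.21), SH2D5 (-0.45 and -0.13) and F3 (-0.39 and -0.18). The sign turned there for DCUN1D3 (-0.17 and 0.11), LOC286437 (-0.27 and 0.08), TRIM15 (-0.16 and 0.05) and MIEF2 (-0.17 and 0.0043). PDE1C signals were 285, 282, 242 and 244 with vehicle and 210, 211, 119 and 183 with indacaterol, without overlap. It had been 0.16 at 2 h and -0.49 at 6 h. Its 5 other probe sets, all dimmer, gave -0.21 to -0.58 at 6 h and -0.33 to 0.06 at 18 h, each nearer the vehicle level at 18 h.

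Genes of the pathway were followed through lists chosen with earlier results of these data known, so a list is described by counts and its median. Of 26 measured CREB targets, 8 were called at 1 h and 15 at 2 h, 14 of these higher, with medians of 0.76 and 1.04. The median was 0.29 at 6 h with 2 called, and 0.057 at 18 h with 0 called, at differences of -0.22 to 0.35. None had an unadjusted p under 0.05 at 18 h, with or without the block. Over all genes the 18 h median was 0.0073. On the separate arrays the CREB list had a median of 0.16, with 0.66 for SIK1, 0.66 for PDE4D and 0.64 for LINC00473, none of them called there. In the list of 27 measured genes from the receptor to protein kinase A the 18 h median was -0.053, 16 were lower, and ADCY4, an adenylyl cyclase, had the largest difference (0.56). Of 23 genes that break down cAMP or end the signal, 15 were higher with a median of 0.079, PDE7B first, and 0 were called.

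Glucocorticoid-inducible genes are known to overlap with those induced by cAMP in airway cells. Of 21 measured, 15 were higher at 18 h with a median of 0.030, after 0.30, 0.48 and 0.25 at the earlier times. None was called, and 6 had an unadjusted blocked p under 0.05, all higher, where 4.99% of all genes had one in that direction: CRISPLD2 (0.61), PDK4 (0.65), ANGPTL4 (0.44), CEBPD (0.18), MT1X (0.17) and MT2A (0.11). Among the 35 mitotic genes the median had been -0.21 at 2 h and was 0.030 at 18 h. Among 17 genes of cholesterol synthesis it had been -0.19 at 6 h, with 2 called, and was -0.0017 at 18 h. The lists of cytokines, secreted growth factors, stress responses, clock, hypoxia and NRF2 genes had 18 h medians of -0.098 to 0.041, with 0 called with or without the block.

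Interferon-stimulated genes, which encode antiviral proteins, lay below vehicle at 6 and 18 h with 0 of 35 called at either time. Their median was 0.26 at 1 h, 0.032 at 2 h, -0.41 at 6 h and -0.17 at 18 h, so it changed sign between times. At 18 h 27 were lower and 7 had an unadjusted blocked p under 0.05, all lower, against 2.58% of all genes in that direction. RSAD2 gave -0.72 and IFIT2 -0.79. By replicate the 18 h medians were 0.12, -0.33, -0.24 and 0.017, so only 2 of the 4 lay below 0. The separate arrays had a median of -0.41. Of 21 YAP target genes 18 were lower at 18 h, with a median of -0.11 and 0 called. An unadjusted blocked p under 0.05 was found for 5 in that direction, again against 2.58%, and for 1 in the other. By replicate the medians were -0.053, -0.028, -0.46 and 0.018, lowest in replicate 3, and the separate arrays gave -0.011. The 21 outputs of the ERK pathway had a median of -0.35 in replicate 3 and between -0.053 and 0.13 in the others.

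Squamous differentiation genes had a median of 0.030 over 21 genes, with KRT4 the only one called with the block. S100A8, a calcium-binding protein of stressed epithelium, had 34.5, 36.4, 819 and 34.6 with vehicle and 42.5, 46.6, 4591 and 36.9 with indacaterol at 18 h. It was dim outside replicate 3, and its difference of 0.75 was not called.

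**Figure D5:**
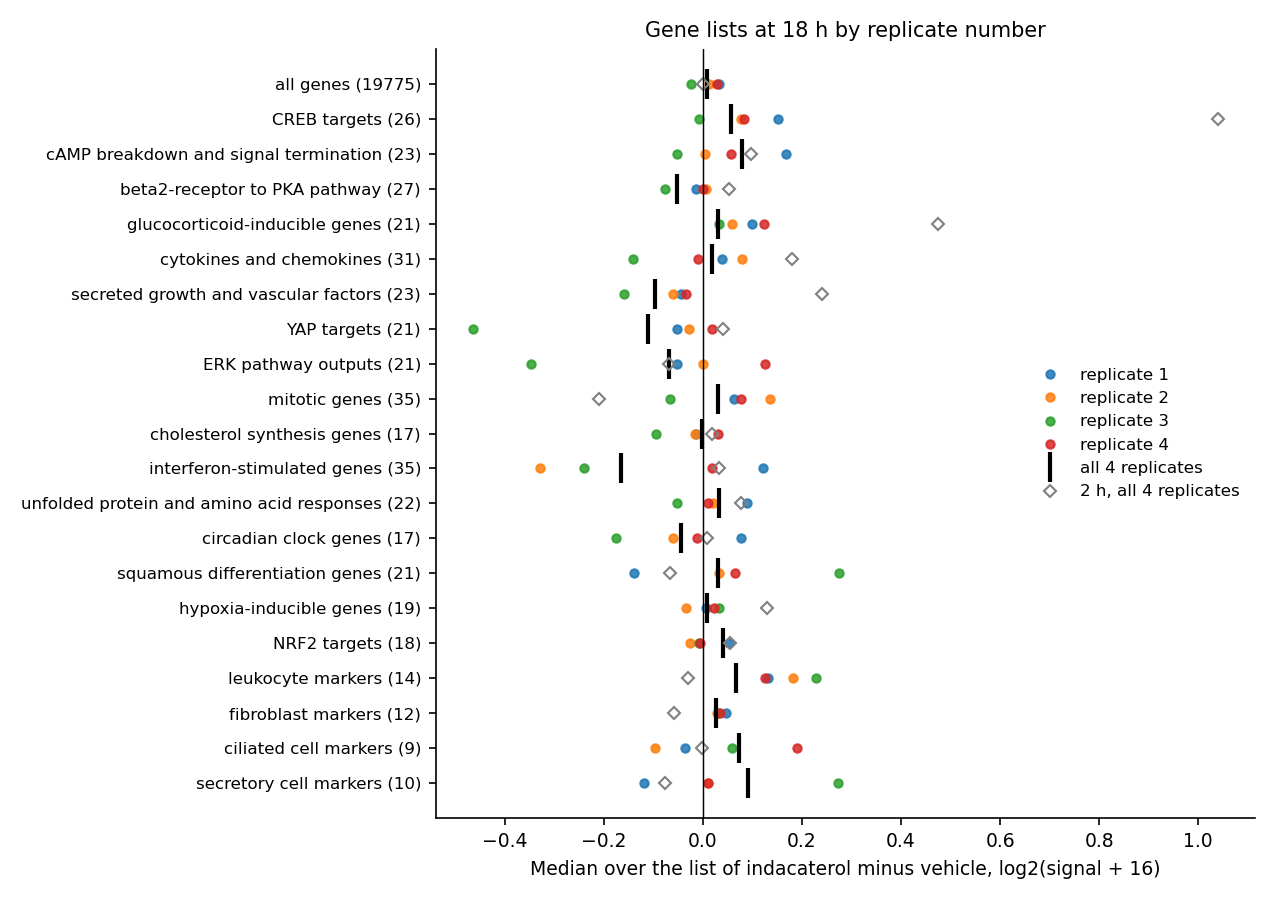
Median difference over each gene list at 18 h on the log2(signal + 16) scale, within each replicate number (coloured points) and over all 4 (black bars), with the 2 h median as an open diamond and the number of genes measured in brackets. CREB targets go from 1.04 at 2 h to 0.057 at 18 h, and the YAP and ERK lists lie apart in replicate 3 only.

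Over all genes, 563 (2.85%) had no overlap between the 4 and 4 arrays at 18 h. With no change and independent arrays, a gene has a chance of 0.0286 to show this. The 563 thus do not exceed the number expected by chance. Of them 432 were higher and 131 lower with indacaterol, so 76.7% were higher. After quantile normalization the counts were 292 and 186, with 61.1% higher. Without replicate 3 they were 1292 and 564, at 3 against 3 arrays. Of the 432 higher genes 190 had a mean signal under 64, as did 24.5% of all genes. Array lower quartiles at 18 h were 39.2, 37.8, 39.4 and 37.1 with indacaterol and 38.6, 35.3, 37.6 and 36.0 with vehicle. Genes under a signal of 64 had a median difference of 0.063 as deposited and 0.0063 after quantile normalization. The part of these levels in the single gene differences was not tested. On the separate arrays 54.5% of the 563 genes had the same sign, beside 54.0% of all genes.

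By the rule for naming genes, the largest of these differences among genes with a mean signal of at least 64 were those of CABP4, IGFBP4 and PDE7B, CALCRL (0.61), WNT2 (0.62), ADCY4 (0.56), GPR20 (0.55), ADAM32 (0.52), HAGLR (0.50) and LOC101593348 (0.50). On the separate arrays the last 7 gave -0.32, 0.09, 0.11, 0.04, 0.02, -0.17 and -0.27 in that order. The largest differences in the other direction were those of LY9 (-0.66), CLIC5 (-0.63), ID2B (-0.61), ACAP1 (-0.57), PDE1C, SPATA31F1 (-0.46), DLX1 (-0.46), TNS1, HOXC5 (-0.45) and INPP4B (-0.42). Among these CLIC5, an intracellular chloride channel family member, gave -0.86 on the separate arrays, ID2B -0.49, and the 6 others given here with values lay between -0.14 and 0.02. Without replicate 3 the differences were -0.36 for LY9, -0.21 for ACAP1, -0.28 for DLX1 and -0.18 for INPP4B. A second DLX1 probe set of like signal gave 0.36, 2 dimmer ones of LY9 gave 0.0084 and 0.03, and the next brightest of CLIC5 gave -0.07. For HAGLR 2 others of like signal gave -0.04 and 0.03, and a dimmer one of GPR20 gave -0.29. Dimmer ones gave 0.14 and 0.18 for CALCRL, 0.0025 and -0.39 for ACAP1, and -0.20 to 0.13 for INPP4B. None of these genes other than CABP4, IGFBP4 and TNS1 was called with or without the block.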

How the data were processed

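RNA of BEAS-2B cells was measured on 64 Affymetrix arrays. The deposited values are linear probe-set intensities made by the authors with PLIER and Transcriptome Analysis Console 4, per the submitters' processing notes, with no settings given. Of 54675 probe sets, 41091 had 1 gene symbol in the platform annotation. Each of 19775 symbols was represented by its brightest probe set over all arrays, as log2(signal + 16). One limma model (version 3.58.1, R 4.3.3, robust eBayes) was fitted to 16 group means over all arrays, with 48 residual degrees of freedom and two-sided tests, adjusted by Benjamini-Hochberg over all genes. Nothing in the labels says what replicate numbers mark. They were taken to pair arrays where, for all 4 numbers, arrays of 1 number departed from their groups together (r above 0.1), as they did at 1, 6 and 18 h and on the separate arrays at 18 h (lowest r 0.26), but not at 2 h (lowest r 0.080). The block puts these numbers in the model, with 45 residual degrees of freedom.

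Genes named by rule were those called at 18 h with or without the block, the 10 largest rises and falls without overlap at a mean signal of at least 64, the 8 largest rises and 4 largest falls called at each earlier time without overlap, early genes without overlap at 18 h (up to 10 in the early direction and 5 in the opposite one), and members of the gene lists. The members and lists were chosen with earlier results of these data known. The scripts were tested on simulated data.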

Additional observations from a re-analysis of the deposited data

Results flagged for a closer look

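Of 124 groups of 4 arrays examined over the genes named by rule, 12 held an array far from the other 3 by Dixon's criterion (9.68%, where chance gives about 1 in 20). With indacaterol at 18 h, replicate 3 was low for ACAP1 (24.78), BNC1 (415.4), DLX1 (29.43), INPP4B (117.5), KRT4 (76.68) and PRDM1 (75.84), replicate 1 was high for FARP1 (1444) and replicate 4 high for CCNF (1537). With vehicle at 18 h, replicate 1 was high for CRISPLD2 (561.8), replicate 4 was high for CCNF (1378) and low for IGFBP4 (2138), and replicate 3 was low for KRT4 (180.8). The IGFBP4 difference without replicate 4 was 0.49, and that of KRT4 without replicate 3 was -0.73, both with the block.

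The effect of indacaterol at 18 h differed from an earlier one, by a limma contrast of both effects, in 21 cases over 16 of these genes. Against 1 h the values were -4.044 for NR4A3, -3.28 for IL6, -2.338 for PRDM1, -2.177 for SGK1 and -1.863 for RGS2. Against 2 h they were -5.735 for NR4A3, -3.122 for LINC00473, -2.48 for SGK1, -2.384 for SIK1, -2.326 for CRISPLD2, -2.012 for PRDM1, -1.941 for RGS2, -1.345 for SLC7A2, -0.98 for BNC1 and -0.7393 for CHST15. Genes that had fallen at 2 h gave 1.261 for TXNIP, 1.221 for EGR1, 0.9975 for CCNF and 0.8647 for BORA. Against 6 h CSGALNACT1 gave -2.179 and SLC7A2 -1.591.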

How the results depend on the processing

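Calls at 18 h numbered 1 in the main model and 0 with a pseudocount of 64, quantile normalization, arrays scaled to one median, a signal filter of 64, the 8 arrays alone (with or without the block) or an intensity trend, and 7 with the replicate block. Leaving out replicates gave 0 to 4, and 0 to 10 with the block. Against 1 h the 9 calls became 5 with a pseudocount of 1, 57 with the block, and 2 to 11 without single replicates, or 50 without replicate 3 with the block. Against 2 h, where the numbers did not pair the arrays, the 59 became 340 with the block and 11 to 65 without single replicates, or 215 without replicate 3 with the block. The 231 calls at 2 h became 746. Against 6 h the 3 became 5 with median scaling, 72 with the block, and 0 to 13 without single replicates, or 45 without replicate 3 with the block. The median share left, 4.43%, ran from -0.2612 without indacaterol replicate 1 at 18 h to 10.02 without indacaterol replicate 3. Early genes without overlap numbered 37 with the block, which calls 1106 early genes, and 8 to 41 without single replicates, or 76 without replicate 3 with the block. The 84 genes of the residue became 34, 47, 70 and 57 without replicate 1, 2, 3 or 4, and the counts without overlap reached 1292 and 564 without replicate 3. Of 1668 single gene values under other settings, 1612 stayed on their side of the threshold or within the spread, and FSD2, the 1 gene called in the main model, kept its direction. NPNT, called with the block only, turned to 0.13 without vehicle replicate 3. Models of the 8 arrays alone could be fitted only for 18 h against vehicle. Alternatives added after the data were seen were the blocked models without replicate 1, 2 or 4, those for the residue and for the separate arrays, and the counts without overlap. The arrays give no detection calls here, so signal level limits what dim genes can show.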

Other observations

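Across all 19775 genes, the indacaterol differences at 18 h correlated with those at 1 h at r = 0.41, at 2 h at 0.097 and at 6 h at 0.25 (0.37, 0.13 and 0.26 after quantile normalization). No arrays are shared between these times, but replicate numbers and probe sets are, and genes are not independent replicates. With the separate arrays at 18 h the correlation was 0.13, and 0.17 after quantile normalization. In vehicle alone, 299 genes (1.51%) were called between 1 and 18 h, 105 higher and 194 lower, and 22 of the 270 early genes were among them (8.15%).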
